A study of Bos taurus with 18 samples.

Results

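The mature guide strands of the miR-125 and miR-99/100 families were followed in the lining of the bovine rumen, the fermenting forestomach. The 5 members were chosen by name, as bta-miR-125a, bta-miR-125b, bta-miR-99a-5p, bta-miR-99b and bta-miR-100, where bta marks bovine entries; the prefix is left off from here on. They stood among 824 miRNAs left once different names for the same reads had been merged, and among the 468 that were abundant enough to be tested. All 5 passed that filter on low counts. Libraries held 5.74 to 15.2 M (mega-reads) of counted reads, and a member had between 4987 and 64643 reads in a library.

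Small RNA was sequenced from papillae biopsied from 9 Holstein cows that were not in milk and carried a rumen cannula. Group HG_PHY held 4 libraries and group HG_CON held 5, all taken on a high-grain diet with 65% concentrate. Group FD_PHY held 4 libraries and group FD_CON held 5, all taken on the earlier baseline diet of 100% forage. PHY cows received a supplement known only by that label and CON cows were controls; neither the meaning of PHY nor whether it was already fed on forage is given in these sources. Ages are not given. Every forage biopsy came before the grain biopsies, so diet and time cannot be told apart.

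miR-125a and miR-125b are vertebrate relatives of lin-4 of Caenorhabditis elegans, the miRNA found to time larval development. miR-99a, miR-99b and miR-100 form a separate family, close in sequence to miR-10a and miR-10b, and are known in human and mouse cells for repressing MTOR, a kinase that couples growth to nutrients. In vertebrates the genes of both families lie beside let-7 genes in shared clusters, so that a miR-99/100 gene, a let-7 gene and a miR-125 gene can be cut from linked transcripts. The question was whether the miR-125 pair moved with its miR-99/100 neighbours when cows were moved to grain.

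The deposited positions showed that arrangement at 3 places, on a genome build that the sources do not name. On the plus strand of chromosome 18, miR-99b lay at 58014874 to 58014895, let-7e began 169 nt further on, and miR-125a lay at 58015549 to 58015571, 675 nt from the start of miR-99b. On the minus strand of chromosome 15, miR-100 lay at 33353407 to 33353428. let-7a-2 lay 5.83 kb from it, and a gene for miR-125b 54.6 kb from it, at 33298829 to 33298850. On the minus strand of chromosome 1, miR-99a-5p lay at 19931197 to 19931217, let-7c lay 728 nt away and a second gene for miR-125b 49.8 kb away, at 19881359 to 19881380. The RefSeq gene table places the genes in the same order, with MIR99B, MIRLET7E and MIR125A together, MIR100, MIRLET7A-2 and MIR125B-1 together, and MIR99A, MIRLET7C and MIR125B-2 together. Among the members, only miR-125b was listed at 2 positions, with 1 position given per library. The mature strand of its 2 genes carries 1 name, so the reads cannot be assigned to chromosome 15 or chromosome 1.

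Levels are given as CPM, counts per mega-reads after TMM scaling of the libraries. miR-99a-5p was the most abundant member, with a mean of 3121 ± 819 CPM (SD, n = 18), and ranked 39th of the 468 miRNAs. miR-125b followed with 1678 ± 413 CPM, miR-125a with 1358 ± 302 CPM, miR-99b with 1264 ± 270 CPM and miR-100 with 1133 ± 175 CPM (SD, n = 18 each). miR-99a-5p lay above miR-125b in 18 of 18 libraries and miR-125b above miR-125a in 17 of 18. The next neighbours overlapped, since miR-125a lay above miR-99b in 12 of 18 libraries and miR-99b above miR-100 in 12 of 18. The place of miR-125a depended on how shared reads were counted. In the deposited counts that divide a read among all names and loci it fits, its mean was 1873 CPM in HG_PHY, 1845 CPM in HG_CON, 2423 CPM in FD_PHY and 2457 CPM in FD_CON. In the same counts miR-125b had 1169 CPM in HG_PHY, 1117 CPM in HG_CON, 1523 CPM in FD_PHY and 1532 CPM in FD_CON, below miR-125a. The division took miR-125b to 0.503 of its raw reads and left those of miR-125a whole, so this order followed from the way of counting.

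**Figure D1:**
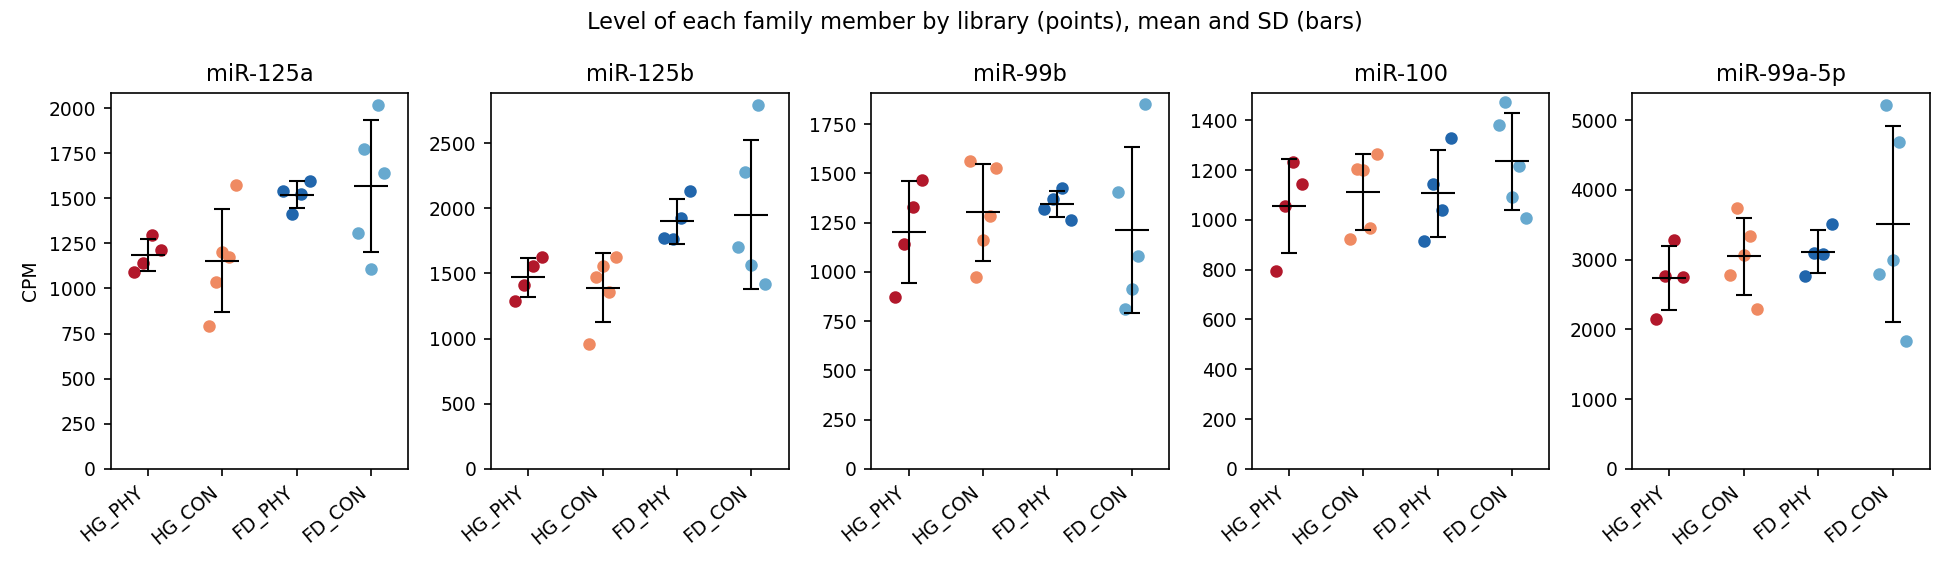
Level of each member in CPM (vertical axis, linear from 0) for the 4 groups, with 1 point per library and bars for the mean and SD. The 4 HG_PHY points lie below the 4 FD_PHY points for miR-125a and miR-125b, while the groups overlap for miR-99b, miR-100 and miR-99a-5p.

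Both miR-125 members had lower mean levels on grain than on forage, by about the same factor, and neither passed the threshold. miR-125a had 1089, 1141, 1296 and 1214 CPM in HG_PHY and 789.4, 1034, 1204, 1174 and 1571 CPM in HG_CON. On forage it had 1542, 1416, 1526 and 1598 CPM in FD_PHY and 1308, 1776, 1106, 2020 and 1638 CPM in FD_CON. The PHY groups did not overlap, every grain library being lower, whereas the CON groups overlapped, with HG_CON replicate 5 at the level of the forage libraries and FD_CON replicate 3 at that of the grain libraries. Averaged over both arms, the log2 fold change of miR-125a, grain over forage, was -0.40 ± 0.12 (SE; fold 0.757), with an unadjusted p of 0.0033 and an adjusted p of 0.171 in edgeR's quasi-likelihood test. In 8 of 9 grain libraries its level was under the forage mean.

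miR-125b had 1286, 1408, 1555 and 1630 CPM in HG_PHY and 956.7, 1472, 1554, 1354 and 1625 CPM in HG_CON. On forage it had 1775, 1765, 1929 and 2133 CPM in FD_PHY and 1704, 2280, 1568, 2791 and 1416 CPM in FD_CON. Again the PHY groups did not overlap and the CON groups did, with FD_CON replicates 3 and 5 among the grain libraries. The log2 fold change of miR-125b over both arms was -0.43 ± 0.13 (SE; fold 0.743), with an unadjusted p of 0.00253 and an adjusted p of 0.154 by edgeR. In 9 of 9 grain libraries it lay under the forage mean, a pattern shown by 3.63% of the miRNAs tested.

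Against the whole table, 0.214% of the miRNAs passed the threshold of 0.05 on the adjusted p, and 0 of the 5 members did. At an unadjusted p under 0.05, 6.41% were lower on grain, and 2 of the 5 members were, miR-125a and miR-125b. A log2 change below 0 was seen in 50.9% of the miRNAs and in 5 of the 5 members, with a median of -0.19 over the members and -0.01 over all tested. The biopsies hold several cell types, and in such bulk samples fewer cells of a type and less RNA per cell cannot be told apart. The smooth muscle and fibroblast markers, led by miR-143, miR-145 and the miR-199 family, were also lower in mean on grain, with 7 of 7 below 0 and a median log2 change of -0.25. Their summed level ranged from 111253 to 139746 CPM on grain and from 135398 to 306669 CPM on forage, and none of the 7 was at 0 in any library. Most of that sum was miR-143, with means of 108853 CPM on grain and 157406 CPM on forage. The part of these markers in the miR-125 result was not tested. The stratified epithelium markers, which include miR-205 and the miR-200 family, ranged from 50199 to 69568 CPM on grain and from 52555 to 71562 CPM on forage. They were below 0 in 2 of 7 (median 0.06), with miR-141 at 0.39 and the rare miR-184 at 1.09. Endothelial markers, miR-126-3p and miR-126-5p, were below 0 in 2 of 2 (median -0.23), and erythroid markers in 0 of 3 (median 0.20). Leukocyte markers were below 0 in 5 of 7 (median -0.20). They ran from miR-146a at -0.53 to miR-223 at 0.48, with miR-150 at 0.07 also above 0. None of these markers passed the threshold by edgeR, and their part was likewise not tested. Leukocyte markers summed to 4836 to 7850 CPM on grain and 5432 to 7972 CPM on forage, erythroid markers to 6415 to 18352 CPM on grain and 6404 to 14199 CPM on forage, and endothelial markers to 9452 to 14189 CPM on grain and 13013 to 16158 CPM on forage. Striated muscle markers summed to 372 to 776 CPM on grain and 485 to 1113 CPM on forage, and miR-206 among them had a library at 0.

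The miR-99/100 members had smaller differences. miR-99b had 872.3, 1140, 1331 and 1465 CPM in HG_PHY and 1560, 973.3, 1163, 1283 and 1528 CPM in HG_CON. On forage it had 1319, 1368, 1424 and 1265 CPM in FD_PHY and 1406, 809.5, 911.3, 1080 and 1852 CPM in FD_CON. High and low libraries of miR-99b occurred on both diets, and its log2 fold change was -0.03 ± 0.14 (SE), with an adjusted p of 0.948 by edgeR. The sign of that change turned in some of the fits that left out 1 library, over a range of -0.10 to 0.07.

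miR-100 had 795.1, 1055, 1233 and 1146 CPM in HG_PHY and 925.4, 1204, 1200, 968.9 and 1265 CPM in HG_CON. On forage it had 916.6, 1143, 1040 and 1328 CPM in FD_PHY and 1382, 1474, 1093, 1218 and 1009 CPM in FD_CON. The groups overlapped in both arms, and miR-100 had a log2 fold change of -0.11 ± 0.11 (SE; adjusted p = 0.767, edgeR). miR-99a-5p had 2146, 2772, 3280 and 2757 CPM in HG_PHY and 2781, 3746, 3072, 3339 and 2292 CPM in HG_CON. On forage it had 2766, 3097, 3085 and 3514 CPM in FD_PHY and 2790, 5214, 3000, 4691 and 1829 CPM in FD_CON. Its spread was widest in FD_CON, where replicates 2 and 4 were the highest of all libraries and replicate 5 the lowest, so that the coefficient of variation was 40.1% there and 9.84% in FD_PHY. miR-99a-5p had a log2 fold change of -0.19 ± 0.16 (SE; adjusted p = 0.679, edgeR).

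Summed by family, the miR-125 pair took 0.269% ± 0.0373 of the raw counts on grain and 0.333% ± 0.0533 on forage (SD, n = 9 each). The miR-99/100 members took 0.545% ± 0.0604 on grain and 0.554% ± 0.0644 on forage (SD, n = 9 each). All 5 together took 0.814% ± 0.0688 on grain and 0.887% ± 0.111 on forage. These shares are without TMM scaling. In summed CPM, which are scaled, the miR-125 pair had 2595 ± 403 on grain and 3476 ± 645 on forage (SD). The miR-99/100 members had 5255 ± 627 CPM on grain and 5781 ± 938 CPM on forage (SD). Neither the shares nor the summed CPM were tested.

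Within the arms, the diet difference of the miR-125 pair was of similar size and passed the threshold in neither. For miR-125a the log2 fold change, grain over forage, was -0.36 ± 0.18 in PHY cows and -0.44 ± 0.16 in CON cows, with adjusted p of 0.703 and 0.402 by edgeR. For miR-125b it was -0.37 ± 0.19 in PHY cows and -0.49 ± 0.17 in CON cows, with the same adjusted p. In each arm 0.0% of the miRNAs passed by edgeR; at an unadjusted p under 0.05, 30 did so in PHY cows and 47 in CON cows, and limma-voom called 1 in PHY cows. In PHY cows, every grain library lay below every forage library for 2 of the 5 members, miR-125a and miR-125b, and for 2.78% of the miRNAs tested. miR-99b had a log2 change of -0.16 ± 0.21 in PHY cows and 0.10 ± 0.19 in CON cows, miR-100 of -0.07 ± 0.16 in PHY cows and -0.15 ± 0.14 in CON cows, and miR-99a-5p of -0.19 ± 0.23 in PHY cows and -0.20 ± 0.21 in CON cows (SE throughout).

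**Figure D2:**
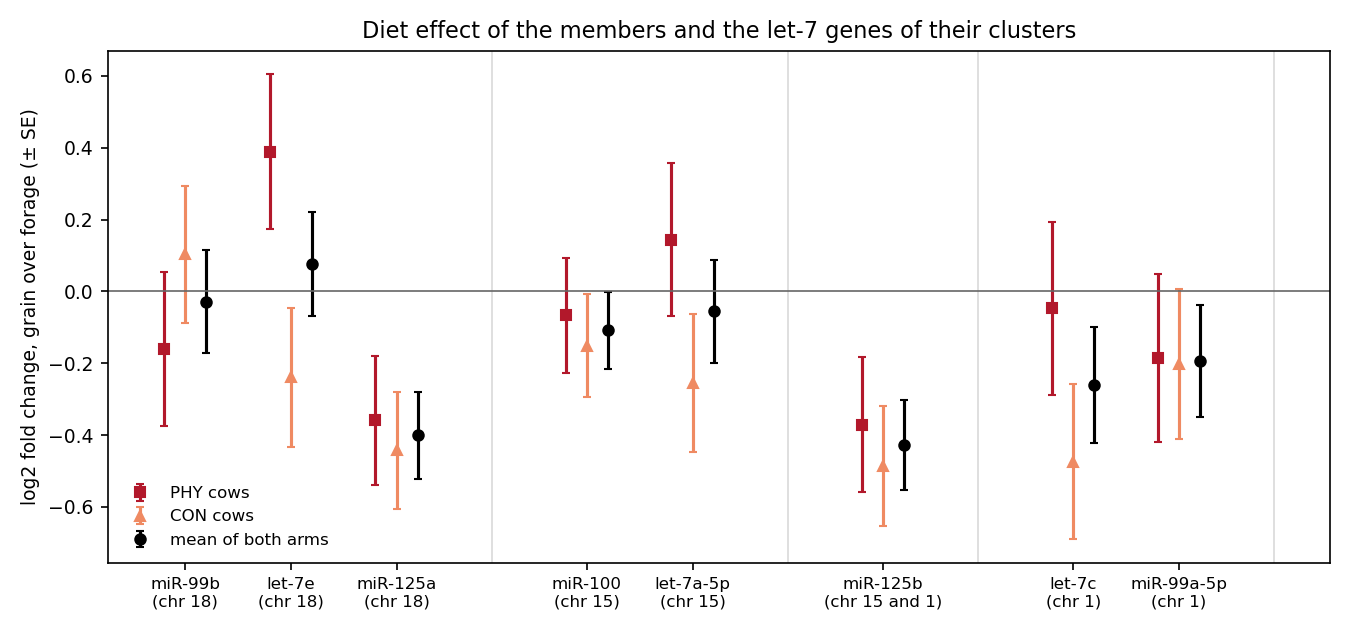
Log2 fold change, grain over forage, of the members and their let-7 neighbours, with points for PHY cows, CON cows and the mean of both arms and bars for the SE, grouped by cluster; miR-125b has genes in 2 clusters and stands alone. miR-125a and miR-125b lie near -0.4 in both arms, and miR-99b and let-7e, from the cluster of miR-125a, differ in sign between the arms.

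The supplement was compared with control on each diet. On grain, the log2 difference PHY minus CON was 0.04 ± 0.17 for miR-125a, 0.08 ± 0.18 for miR-125b, -0.15 ± 0.22 for miR-99a-5p, -0.11 ± 0.20 for miR-99b and -0.07 ± 0.15 for miR-100 (SE). On forage it was -0.05 ± 0.17 for miR-125a, -0.04 ± 0.18 for miR-125b, -0.17 ± 0.22 for miR-99a-5p, 0.15 ± 0.20 for miR-99b and -0.16 ± 0.15 for miR-100 (SE). On each diet the 2 comparisons called 0.0% of the miRNAs by edgeR, while 31 on grain and 20 on forage had an unadjusted p under 0.05 and DESeq2 called 2 on grain and 1 on forage. Of the 5 members, 0 passed on either diet. The test of the difference in diet effect between arms gave log2 values of 0.08 for miR-125a, 0.12 for miR-125b, 0.02 for miR-99a-5p, -0.26 for miR-99b and 0.08 for miR-100, each with an adjusted p of 0.997 by edgeR, and that of miR-99a-5p turned to -0.010 with RLE scaling. That interaction called 0.0% of the miRNAs, with 11 at an unadjusted p under 0.05.

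The ratio of 2 members within a library does not depend on how libraries are scaled, and shows directly whether they moved together with diet. miR-125a over miR-125b was nearly level, with a difference in mean log2 ratio, grain minus forage, of 0.02 ± 0.08 (SE, n = 9 each; exact permutation p = 0.870). miR-125a over miR-99b, its neighbour at 675 nt, had ratios of 1.25, 1.0004, 0.974 and 0.829 in HG_PHY and 0.506, 1.06, 1.03, 0.915 and 1.03 in HG_CON. On forage the ratio was 1.17, 1.03, 1.07 and 1.26 in FD_PHY and 0.931, 2.19, 1.21, 1.87 and 0.884 in FD_CON. The diets overlapped, with the highest ratios in FD_CON replicates 2 and 4 and the lowest in HG_CON replicate 1. The difference in log2 ratio was -0.41 ± 0.19 (SE, n = 9 each), with an exact permutation p of 0.0437, two-sided, and 0.146 after Benjamini-Hochberg adjustment over 10 pairs.

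miR-125b over miR-100, which share the cluster on chromosome 15, was 1.62, 1.34, 1.26 and 1.42 in HG_PHY and 1.03, 1.22, 1.30, 1.40 and 1.28 in HG_CON. On forage it was 1.94, 1.54, 1.85 and 1.61 in FD_PHY and 1.23, 1.55, 1.43, 2.29 and 1.40 in FD_CON. In 9 of 9 grain libraries the ratio was under the forage mean, yet the diets overlapped, with FD_CON replicate 1 among the lower and HG_PHY replicate 1 among the higher libraries. The log2 difference was -0.31 ± 0.11 (SE, n = 9 each; exact permutation p = 0.00938, adjusted p = 0.0938). Without FD_CON replicate 1 it was -0.36 with an adjusted p of 0.0173, and without HG_PHY replicate 1 it was -0.35 with an adjusted p of 0.0358, both by the exact permutation test. Both libraries are the exceptions just named, and this pair passed in no other run that left out 1 library. miR-125b over miR-99a-5p differed by -0.27 ± 0.13 in log2 (exact permutation p = 0.0635, adjusted p = 0.159). Among the miR-99/100 members, miR-99a-5p over miR-99b differed by -0.16 ± 0.29, miR-99a-5p over miR-100 by -0.04 ± 0.15 and miR-99b over miR-100 by 0.11 ± 0.20 in log2. Of the 10 pairs, 0 passed after adjustment in this unpaired test, where the smallest p that 9 against 9 libraries allow is 4.11e-05.

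**Figure D3:**
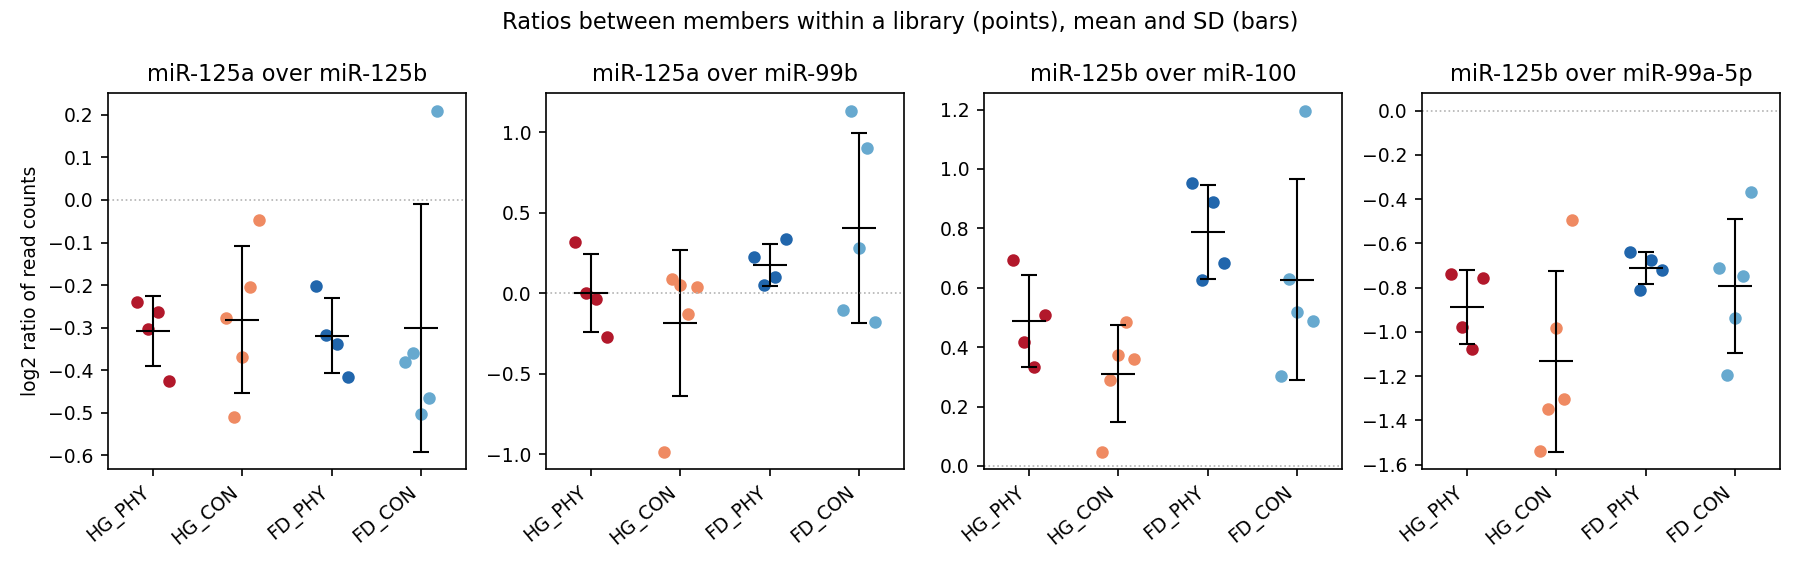
Log2 ratio of read counts of 4 member pairs (vertical axis) for each library of the 4 groups, with bars for the mean and SD. miR-125a over miR-125b centres near -0.3 in all 4 groups, while miR-125b over miR-100 is lower on grain in both arms, with overlap.

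Across cows on the same diet, miR-125a was set against miR-125b and against its own neighbour miR-99b; the difference between the 2 relations was not tested, and on grain their order turned when HG_CON replicate 1 was left out (r = 0.63 with miR-125b and 0.80 with miR-99b). On grain, log2 CPM of miR-125a and miR-125b had Pearson's r = 0.87 over 9 libraries (permutation p = 0.00319, adjusted p = 0.0319 over 20 relations) and Spearman's rho = 0.83 (permutation p = 0.00827, adjusted p = 0.0827). Without HG_CON replicates 1 and 5, the farthest from the median of miR-125a, r was 0.55 (permutation p = 0.196), so the relation rests on those libraries. Leaving out any 1 of HG_CON replicates 1, 3 and 5 and HG_PHY replicates 2 and 3 ended the call, with r between 0.63 and 0.91. On forage r was 0.71 for that pair (permutation p = 0.0334, adjusted p = 0.134), with rho of 0.63 (permutation p = 0.0760), and 0.38 without FD_CON replicates 3 and 4. Without FD_CON replicate 5 alone it was 0.94, with an adjusted permutation p of 0.00992. miR-125a and miR-99b had r of 0.13 on grain (permutation p = 0.743) and -0.0024 on forage (permutation p = 0.995), with rho of 0.35 on grain and -0.20 on forage. On grain that value turned on HG_CON replicate 1, which had the lowest miR-125a and the highest miR-99b of the grain libraries: r was 0.81 without HG_CON replicates 1 and 5.

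miR-125b and miR-99a-5p, both with a gene on chromosome 1, had r = 0.11 on grain (permutation p = 0.779; rho = -0.083, permutation p = 0.843). On forage r was 0.89 (permutation p = 0.00178, adjusted p = 0.0319), rho was 0.83 (permutation p = 0.00827), and r without FD_CON replicates 2 and 4 was 0.83 (permutation p = 0.0163). Leaving out FD_CON replicate 5 or FD_PHY replicate 4 alone ended that call, at adjusted permutation p of 0.0521 and 0.0546, with r of 0.85 and 0.89. miR-125b and miR-100 had r = 0.72 on grain (permutation p = 0.0281, adjusted p = 0.134; rho = 0.80, permutation p = 0.0138) and 0.49 on forage (permutation p = 0.183; rho = 0.45, permutation p = 0.230). miR-99a-5p and miR-99b had r = -0.03 on grain (permutation p = 0.929) and -0.81 on forage (permutation p = 0.00907, adjusted p = 0.0605; rho = -0.67, permutation p = 0.0589), and the forage r was -0.36 without FD_CON replicates 2 and 5. Without FD_CON replicate 3 miR-99a-5p and miR-99b had r = -0.95 on forage (adjusted permutation p = 0.0129), and without HG_CON replicate 1 or HG_PHY replicate 1 miR-125b and miR-100 had 0.89 and 0.84 on grain (adjusted permutation p = 0.0275 each). Of 20 relations, 2 passed after adjustment by Pearson's r, miR-125a with miR-125b on grain and miR-125b with miR-99a-5p on forage, and 0 by Spearman's rho, where both pairs had an adjusted permutation p of 0.0827. With adjusted counts, miR-99a-5p with miR-99b on forage also passed by r (-0.85, adjusted permutation p = 0.0388).

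**Figure D4:**
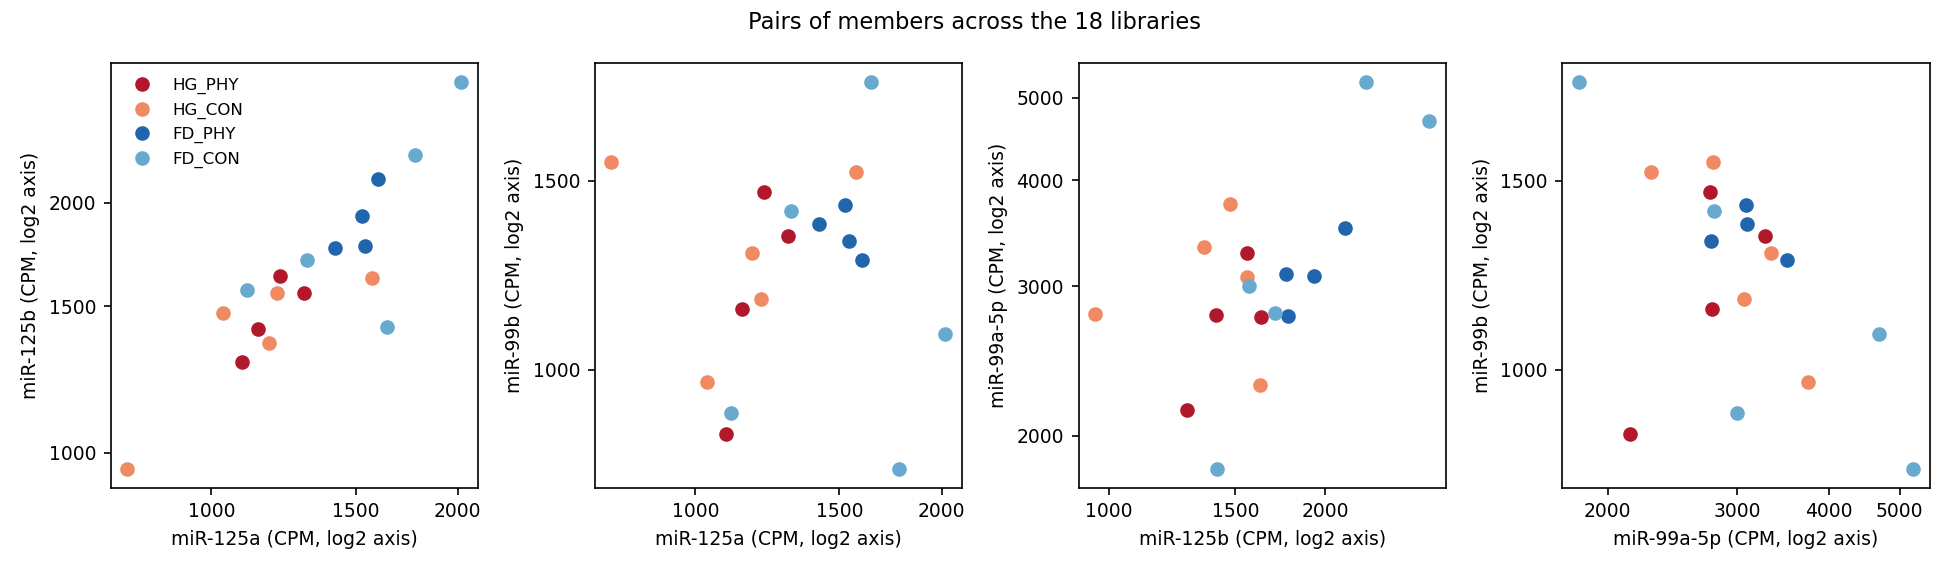
Scatter of 4 member pairs over the 18 libraries, with both axes in CPM on a log2 scale and colours for the 4 groups. Over all libraries miR-125a and miR-125b lie along a rising band, and miR-99b shows no such band with miR-125a. Both patterns rest in part on the outermost libraries. Without HG_CON replicates 1 and 5, Pearson's r of miR-125a on grain was 0.55 with miR-125b and 0.81 with miR-99b. Without FD_CON replicates 3 and 4, r of miR-125a with miR-125b on forage was 0.38.

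The let-7 neighbours, guide strands of the tumour-suppressing let-7 family, were set beside the members of their clusters. The log2 change, grain over forage, was 0.07 ± 0.14 for let-7e, -0.26 ± 0.16 for let-7c and -0.06 ± 0.14 for let-7a-5p (SE), with adjusted p of 0.909, 0.553 and 0.916 by edgeR. On chromosome 18, miR-125a over let-7e differed by -0.44 ± 0.20 in log2 ratio (exact permutation p = 0.0475, adjusted p = 0.142 over 6 pairs) and miR-99b over let-7e by -0.03 ± 0.28 (p = 0.917, exact permutation). miR-99a-5p over let-7c differed by 0.10 ± 0.11 and miR-125b over let-7c by -0.16 ± 0.11. miR-100 over let-7a-5p differed by -0.02 ± 0.12, and miR-125b over let-7a-5p by -0.33 ± 0.13 (exact permutation p = 0.0240, adjusted p = 0.142). Of the 6 pairs, 0 passed after adjustment. let-7a-5p and let-7c share reads with other let-7 names, so their ratios are uncertain, and let-7a-5p, with a mean of 40690 CPM, has further genes outside the cluster.

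let-7e was the neighbour that differed most between PHY and CON cows on grain. It had 796.7, 1077, 1016 and 1329 CPM in HG_PHY and 430.2, 534.2, 606.6, 916.6 and 587.9 CPM in HG_CON. Of the HG_PHY libraries, 3 lay above every HG_CON library, and the fourth overlapped only with HG_CON replicate 4. How many of all miRNAs showed such a pattern was not counted. The log2 difference PHY minus CON was 0.78 ± 0.20 (SE; unadjusted p = 0.000991, adjusted p = 0.232, edgeR), and 0.96 with an adjusted p of 0.0152 when HG_CON replicate 4 was left out. That library is the overlap just named, and let-7e passed in no other run that left out 1 library. On grain, 4.7% of the miRNAs tested were higher in PHY cows at an unadjusted p under 0.05. A log2 difference below 0 was seen in 49.8% of them and in 3 of the 5 members. On forage the difference in let-7e was 0.15 ± 0.20 (adjusted p = 0.926, edgeR). miR-125a and miR-99b, less than 1 kb from let-7e, had differences of 0.04 and -0.11 on grain, as given above. The ratio of miR-125a over let-7e was 1.37, 1.06, 1.28 and 0.913 in HG_PHY and 1.83, 1.94, 1.98, 1.28 and 2.67 in HG_CON.

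Other strands of the same hairpins were rare. miR-99b-3p, listed under its human name, had 183 to 501 reads per library, and its ratio to miR-99b was 25.1 ± 5.19 per 1000 guide reads on grain and 22.6 ± 3.47 on forage (SD, n = 9 each; exact permutation p = 0.254). miR-99a-3p had 17 to 140 reads, and 1.79 ± 0.575 per 1000 miR-99a-5p reads on grain and 1.70 ± 0.560 on forage (SD, n = 9 each; exact permutation p = 0.774). The log2 change, grain over forage, was 0.15 ± 0.17 for miR-99b-3p and -0.17 ± 0.29 for miR-99a-3p (SE), neither past the threshold. Opposite strands of miR-100, miR-125a and miR-125b were not among the names used here. miR-10a and miR-10b, the Hox-cluster relatives of miR-99/100, had log2 changes of -0.26 ± 0.12 and -0.27 ± 0.13 (SE; adjusted p = 0.449 each, edgeR), each lower than the forage mean in 8 of the 9 libraries from grain.

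The miRNAs most like each member were sought by Pearson's r of log2 CPM, centred on the group means, over the 18 libraries and 467 other miRNAs. These values describe libraries that share cows, depth and scaling, and carry no test. For miR-125a the most alike was miR-125b, with r = 0.77, while miR-99b ranked 201st with 0.08 and let-7e 82nd with 0.35. For miR-125b the most alike was let-7c (r = 0.80), followed by miR-125a (0.77), miR-145-3p (0.75), miR-10b (0.74) and miR-342 (0.70), with miR-99a-5p 9th (0.67), miR-100 14th (0.64) and miR-99b 377th (-0.33). For miR-99a-5p they were miR-26a (0.90), miR-374b (0.88) and the neighbour let-7c (0.85). For miR-100 they were miR-10a (0.86), miR-199b (0.80), miR-199c (0.79) and miR-199a-3p (0.78). The list of miR-99b was led by miR-6120-3p (0.89) and miR-2285k (0.81) and held miR-21-5p (0.79), and its r with let-7e was -0.24. The low r of miR-99b with miR-125a includes HG_CON replicate 1, without which their r on grain was 0.80. The summed smooth muscle and fibroblast markers had r of 0.13 with miR-125a, 0.34 with miR-125b, 0.61 with miR-99a-5p, -0.65 with miR-99b and 0.32 with miR-100 on the same centred scale. That sum was mostly miR-143 and was highest in FD_CON replicate 2, which also had the highest miR-99a-5p and the lowest miR-99b. These r values were not computed without that library.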

How the data were processed

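Small RNA was sequenced from 18 rumen papillae biopsies of 9 cows. Per the labels' protocols, the NucleoSpin miRNA kit served for extraction and the NETflex Small RNA-Seq kit for the libraries. Of software, bcl2fastq 2.20 and DESeq2 appear in the submitters' processing notes, while the aligner and build used are not given in these sources. As the file headers show, the authors deposited for each library a raw read count per mature miRNA name and an adjusted, expected count in which a read is divided over the names and loci it fits. For miR-125a the 2 were equal, and for the other members the adjusted count was 0.499 to 0.504 of the raw count. miR-99b and miR-100 are also listed under human names and miR-125b has 2 loci; for miR-99a-5p, with 1 name and 1 position here, no reason was found. The expected counts were rounded and served as an alternative.

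The 966 listed names were merged into 824 miRNAs where positions shared at least 15 nt, or where the totals of a bovine name and its human counterpart were within 5%. Summed over the merged miRNAs, each library held 5.74 to 15.2 M (mega-reads) of raw counts. A read shared by several miRNAs, as among let-7 names, still counts under each. The 468 miRNAs that passed filterByExpr were tested on the raw counts with edgeR 4.0.16 in R 4.3.3 (TMM scaling, quasi-likelihood test with its robust option, 1 mean per group, two-sided, Benjamini-Hochberg adjustment over all 468, threshold 0.05). The fit was also run on simulated independent libraries, which cannot show what the repeated cows do to the p-values. Cows were not modelled, so the 18 libraries from 9 cows enter the p-values as if independent. Replicates differed by more than counting noise, with a chi-square per degree of freedom of at least 110.6 for each pair. Ratios were tested with exact permutation tests and correlations with permutations of pairings, on log2 CPM with a prior count of 2.

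The names printed are the members, their let-7 neighbours, opposite strands, miR-10a and miR-10b, cell type markers, and miRNAs among the 5 most alike each member. Not all of those 5 are printed for every member. Members and lists were chosen with earlier results of these data known. Names are bovine except miR-99b-3p and miR-145-3p, which are human entries. Alternatives were RLE and upper-quartile scaling, DESeq2 1.42.0, limma-voom (limma 3.58.1), no filter, no robust option, adjusted counts, another prior count, a replicate block and leaving out each library. No sequences are printed.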

Additional observations from a re-analysis of the deposited data

Results flagged for a closer look

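Of 72 groups of values examined, 6 held a library that stood apart from the rest of its group; chance flags about 1 in 20. let-7e had 1089 CPM in FD_PHY replicate 4, against 707.0 to 715.4 CPM in the other FD_PHY libraries. The log2 ratio of miR-125a over miR-125b was 0.21 in FD_CON replicate 5, the only library with more miR-125a than miR-125b, against -0.50 to -0.36 in the other FD_CON libraries. The log2 ratio of miR-125a over miR-99b was -0.98 in HG_CON replicate 1, against -0.13 to 0.09 in the other HG_CON libraries. Without that library the difference between diets in this ratio, grain minus forage, was -0.30, with an adjusted p of 0.309 by the exact permutation test.

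HG_PHY held the other 3. The log2 ratio of miR-125a over miR-100 was 0.45 in replicate 1, against 0.07 to 0.11 in the others. In replicate 4, the log2 ratio of miR-99a-5p over miR-99b was 0.91, against 1.28 to 1.30 in the others. The log2 ratio of miR-99b over miR-100 was 0.35 in replicate 4, against 0.11 to 0.13 in the others.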

How the results depend on the processing

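No member passed the threshold in any alternative run of the 6 comparisons across all miRNAs. For the diet effect over both arms, 26 alternatives gave miR-125a log2 values of -0.47 to -0.35 (adjusted p of 0.0658 to 0.335) and miR-125b -0.48 to -0.35 (adjusted p of 0.0706 to 0.300). The count of miRNAs past the threshold in that comparison was 1, and 5 with DESeq2, 3 with no filter, 3 with limma-voom, 0 with adjusted counts, 0 with upper-quartile scaling (chosen after seeing the data), and 0 to 3 without 1 library. In PHY cows limma-voom called 1. For PHY minus CON, DESeq2 called 1 on forage and 2 on grain; leaving out 1 library gave 0 to 1 on forage and 0 to 3 on grain, the 3 without HG_CON replicate 4. Centring on arm means gave 4 called correlations in place of 2, with miR-99a-5p and miR-99b on forage (-0.82) and miR-125b and miR-100 on grain (0.79) added. Leaving out 1 library gave 0 to 4, and 0 to 1 called member ratios. The cause was not tested.

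Whether replicate numbers name cows is not given in the labels, and the data did not settle it: same-numbered libraries had correlations of -0.02 to 0.39 and 4 of 9 grain libraries matched their own number best, so the unpaired tests were kept. With a replicate block the diet effect called 5 miRNAs over both arms and 1 in PHY cows. By a sign-flip test of the differences, the block called 4 member ratios: miR-125a over miR-99a-5p (-0.25, exact permutation test by sign flips, adjusted p = 0.0293), miR-125a over miR-100 (-0.29), miR-125b over miR-99a-5p (-0.27) and miR-125b over miR-100 (-0.31; adjusted p = 0.0130 for each of these 3, exact permutation). The interaction of miR-99a-5p was -0.074 with the block, -0.010 with DESeq2 and with RLE scaling, -0.024 with no filter and -0.043 with limma-voom.

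Values near 0 turned sign when 1 library was left out. The diet effect over both arms ranged from -0.10 to 0.073 for miR-99b, -0.018 to 0.16 for let-7e, -0.12 to 0.057 for let-7a-5p and -0.32 to 0.0036 for miR-99a-3p. In PHY cows it ranged from -0.15 to 0.040 for miR-100, and in CON cows from -0.046 to 0.31 for miR-99b. PHY minus CON on grain ranged from -0.077 to 0.17 for miR-125a, -0.033 to 0.14 for miR-125b, -0.20 to 0.0074 for miR-99b and -0.13 to 0.034 for miR-100. On forage it ranged from -0.12 to 0.061 for miR-125a, -0.13 to 0.13 for miR-125b, -0.33 to 0.010 for miR-99a-5p and -0.021 to 0.23 for let-7e. The interaction ranged from -0.074 to 0.22 for miR-125a, -0.047 to 0.21 for miR-125b, -0.12 to 0.18 for miR-99a-5p and -0.019 to 0.18 for miR-100. Log2 ratios ranged from -0.015 to 0.080 for miR-125a over miR-125b, -0.33 to 0.0096 for miR-99a-5p over miR-99b, -0.12 to 0.029 for miR-99a-5p over miR-100, -0.0048 to 0.21 for miR-99b over miR-100, -0.18 to 0.10 for miR-99b over let-7e and -0.072 to 0.028 for miR-100 over let-7a-5p. Correlations on grain ranged from -0.16 to 0.80 for miR-125a with miR-99b, -0.021 to 0.31 for miR-125b with miR-99a-5p and -0.71 to 0.29 for miR-99a-5p with miR-99b. On forage miR-125a with miR-99b ranged from -0.50 to 0.28, and was 0.028 with adjusted counts, 0.033 with RLE scaling and 0.0075 centred on arm means.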

Other observations

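The let-7 family as a whole was compared between PHY and CON cows on grain, since let-7e is the neighbour of miR-125a and miR-99b. Of its 9 guide strands, miR-98 included, 9 had a log2 difference above 0, with a range of 0.10 to 0.78 and a median of 0.20. Over all 468 miRNAs the median was 0.00 and 49.8% lay below 0. Only let-7e had an unadjusted p under 0.05, and 0 of the 9 passed the threshold by edgeR. Several let-7 names share reads, so the 9 values are not independent of each other. On forage the same family leaned the other way between PHY and CON cows, with 8 of 9 below 0, a median of -0.18 and 0 past the threshold. Over all miRNAs the median there was -0.04 and 55.6% lay below 0. At an unadjusted p under 0.05 by edgeR, 1 of the 9 was lower in PHY cows on forage. In the comparison on grain the 5 members ranged from -0.15 to 0.08, with a median of -0.07.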
